A study of Rattus norvegicus with 3 samples.

Results

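The nuclear factor I (NFI) family holds the transcription factor genes Nfia, Nfib, Nfic and Nfix. They were found by symbol among the 29772 genes of the deposited matrices, so the 4 members are 4 of 29772 genes, and each symbol matched 1 row. The cells came from the cerebral cortex of wildtype rat embryos (Rattus norvegicus), and their transcripts were counted cell by cell in droplets. There were 3 libraries, whose labels give embryonic day 14, 16 or 18 (E14, E16, E18), with 1 library a label. All animals are of the same genotype and none received an agent. The strain and how many embryos were pooled are not given in the sources used here. The protocol text attached to the samples also describes cultured material and a sort for human cells, which does not match primary rat tissue, and which of those steps applied is not known. There is therefore no replicate check and no test between libraries: intervals are 95% intervals and cover counting error only.

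NFI proteins bind DNA as dimers, to a palindrome or to one arm of it, and can raise or lower the genes they bind. In the embryonic cortex Nfia, Nfib and Nfix are known for moving radial glia, the dividing stem cells of the ventricular wall, towards neuron and glia production, and Nfia is known as a factor of the switch to making astrocytes. Radial glia give rise to intermediate progenitors, which divide to give neurons. Nfic is best known outside the brain, in tooth root formation.

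The sequence ahead of each gene is shown for the pair of members whose upstream bases differed most in composition, Nfib and Nfix. These are the 250 bases before the annotated gene start, from RefSeq, build GRCr8, read 5′ to 3′ on the gene's own strand, with every CG pair in capitals. All 4 members had an entry.
Nfib, chr5:102019946-102020195, minus strand: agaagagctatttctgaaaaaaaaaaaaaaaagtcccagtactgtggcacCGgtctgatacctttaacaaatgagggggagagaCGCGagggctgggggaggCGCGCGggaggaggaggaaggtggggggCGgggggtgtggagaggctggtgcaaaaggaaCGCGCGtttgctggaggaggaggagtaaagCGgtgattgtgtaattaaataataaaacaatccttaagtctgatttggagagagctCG
Nfix, chr19:40260089-40260338, plus strand: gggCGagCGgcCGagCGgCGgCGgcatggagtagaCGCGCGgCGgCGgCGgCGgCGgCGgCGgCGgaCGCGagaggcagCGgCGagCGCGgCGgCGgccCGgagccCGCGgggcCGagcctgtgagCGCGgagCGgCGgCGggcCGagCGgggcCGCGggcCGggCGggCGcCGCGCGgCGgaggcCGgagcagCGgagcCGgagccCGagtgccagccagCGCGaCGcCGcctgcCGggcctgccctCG
The Nfib stretch held 12 CG pairs and 51.2% G and C, the same G and C share as the median of 33469 upstream stretches of this length. The Nfix stretch held 55 CG pairs and 86.8% G and C, a share that 0.0627% of the stretches reached. Nfia had 36 pairs with 72.8%, and Nfic 25 pairs with 66.4%, against a median of 5 pairs. The single NFI arm TTGGC, searched on both strands, was in 0 of the 4 and in 40.3% of all stretches. The full palindrome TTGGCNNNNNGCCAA, which contains that arm, was in 0 of the 4 and in 0.0359% of all. Neither ACAAAG, a core bound by SOX factors, nor the POU octamer ATGCAAAT was found ahead of a member, against 16.3% and 1.56% of all stretches.

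After filters, 4286, 4977 and 5431 cells remained in label order, with medians of 11199, 12264 and 10477 unique molecular identifiers (UMIs) per cell. Between 7 and 8 of the kept barcodes were shared by any 2 libraries. Cells were clustered anew and clusters named from marker genes, so a class such as radial glia means radial glia-like cells. Levels are in CPM, the gene's UMIs over the class's UMIs, scaled to 1000000. They count 3′ ends, are not scaled for length, and are set against each other within a gene only. In radial glia the genes used to check stage went against the order of the labels: Hmga2, a gene of early radial glia, was at 11.9, 222.1 and 21.3 CPM in the libraries labelled E14, E16 and E18, and Aldoc, a gene of late radial glia, at 736.3, 17.1 and 240.1 CPM. Of all globin UMIs, embryonic globins made up 2.57%, 67.4% and 22.0% in the same order. The library labelled E16 thus had the earliest pattern by these genes and that labelled E14 the latest. Not all listed stage genes gave this order. Of early genes at a mean of 5 CPM, 3 were higher in E18 than in E14 and 1, Ccnd1, lower. Ccnd1 was at 61.6, 249.3 and 41.3 CPM in label order. Of such late genes, 3 were higher in E18 than in E16 and 1, Id3, lower. Id3 was at 96.9, 39.5 and 20.4 CPM. Directions below are between libraries as labelled, not along a time course.

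In radial glia all 4 members were lowest in the library labelled E16. Nfia, the member tied to the glial switch, was at 1022 CPM in the library labelled E14 (interval 995.7 to 1048). In that labelled E16 it was at 639.6 CPM (632.2 to 647.0), and in that labelled E18 at 1118 CPM (1105 to 1132). Nfib, which acts beside it in cortical development, was at 1082, 674.9 and 1164 CPM. For both genes the outer libraries lay near each other and the library labelled E16 well below. Nfix, known for a role in neural stem cell quiescence, was at 311.9, 66.7 and 258.8 CPM, with intervals of 297.7 to 326.7, 64.3 to 69.1 and 252.6 to 265.2. Nfic was the scarcest in UMIs, at 36.5, 12.4 and 30.2 CPM from 211, 556 and 757 UMIs. No member's interval in the library labelled E16 overlapped that of another library.

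Set as ratios, the library labelled E16 over that labelled E14 gave log2 -0.68 (-0.72 to -0.64) for Nfia and -0.68 (-0.72 to -0.64) for Nfib. Nfic was at -1.56 (-1.79 to -1.33) and Nfix at -2.23 (-2.31 to -2.14), which is 4.68-fold lower. Thus 4 of 4 members were lower and 2, Nfic and Nfix, were at least 2-fold lower, where 8.28% of 9891 genes of at least 5 CPM were at least 2-fold lower. The members' median log2 ratio was -1.12 and that of all these genes -0.13. From the library labelled E16 to that labelled E18 all 4 were higher: Nfia by 1.75-fold, Nfib by 1.72-fold, Nfic by 2.44-fold and Nfix by 3.88-fold. The same 2 members were past 2-fold, against 2.32% of genes at least 2-fold higher. Between the libraries labelled E18 and E14, 0 of 4 were past 2-fold in either direction, against 5.03% of genes: Nfia was 1.09-fold and Nfib 1.08-fold higher in E18, and Nfic and Nfix each 1.21-fold lower. The 3 comparisons share libraries.

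**Figure D1:**
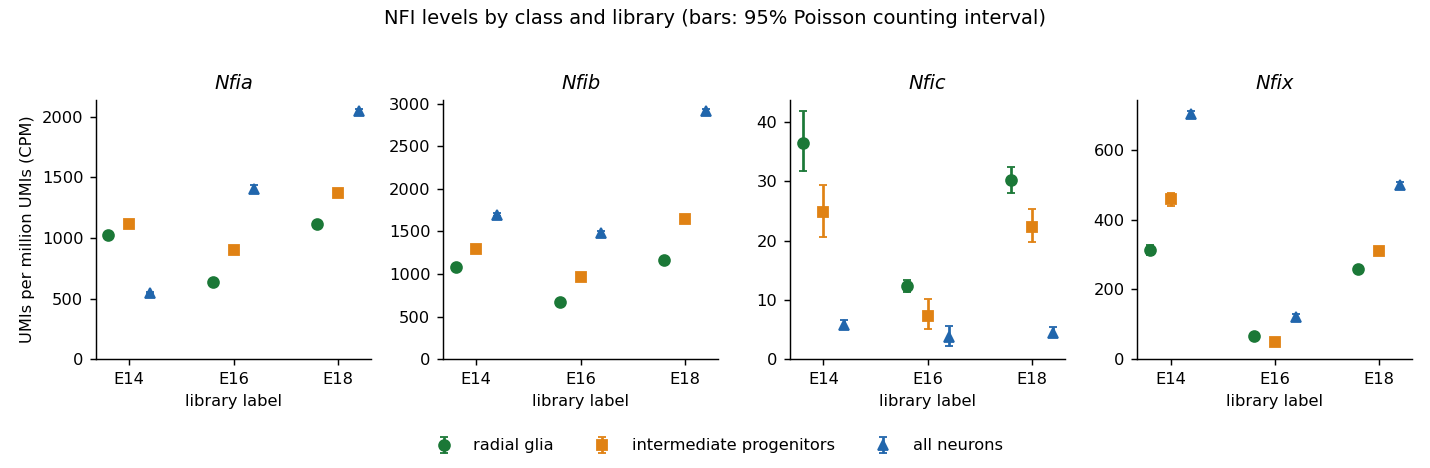
Level of each NFI gene (vertical axis, CPM, from 0, on its own scale) in the 3 libraries (horizontal axis) for radial glia (circles), intermediate progenitors (squares) and all neurons (triangles), with 95% Poisson counting intervals. In radial glia and intermediate progenitors each gene is lowest in the library labelled E16, while in neurons Nfia is lowest in that labelled E14, at 547.1 CPM.

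The radial glia of the libraries did not fall into the same clusters. Most cells labelled E14 were in clusters 1 (233 cells, led by Fabp7 and Aldoc) and 10 (148 cells, led by Top2a), and those labelled E16 were mainly in clusters 0, 3 and 5. Cluster 10, of dividing cells, held at least 50 cells of each library. Within it Nfia was at 1033, 689.5 and 1323 CPM and Nfib at 1137, 727.8 and 1309 CPM in label order. Nfic was at 37.8, 9.46 and 30.5 CPM and Nfix at 304.5, 49.1 and 297.4 CPM. The dip in the library labelled E16 was therefore also present among cells that clustered together, and for Nfic and Nfix the gap to the library labelled E14 was no smaller there. Cluster 1 held 233 cells labelled E14 and 818 labelled E18. In it Nfia was at 1019 CPM (983.3 to 1056) and 965.8 CPM (946.1 to 985.7), with intervals that just overlapped. Nfib was at 1040 and 1048 CPM, Nfic at 35.6 and 29.8 CPM and Nfix at 318.1 and 220.9 CPM. The small differences between the libraries labelled E14 and E18 over all radial glia thus varied by cluster.

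Markers of later cells and mitochondrial UMIs moved with the groups. In radial glia the 10 markers of newborn neurons summed to 474.6 CPM in the library labelled E14, with 5 of 10 at 20 CPM or more, and to 255.2 and 263.1 CPM in the others, with 2 of 10. Eomes, the factor that marks intermediate progenitors, was at 158.0, 19.0 and 59.1 CPM. The 5 astrocyte markers summed to 68.2, 126.8 and 99.1 CPM, most of it from Gja1. Other astrocyte genes were highest in the library labelled E14: S100b was at 7.27, 0.555 and 4.94 CPM, Gfap at 6.23, 0.111 and 0.797 CPM, and Aqp4 had 8, 1 and 1 UMIs. The median share of mitochondrial UMIs was also lowest in the library labelled E16, at 5.34%, 3.57% and 4.43% in radial glia and 5.86%, 4.18% and 4.50% in intermediate progenitors. The part of these in the NFI differences was not tested.

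Radial glia with a UMI of Top2a or Mki67, genes of cycling cells, after thinning to 2000 UMIs had more Nfia than those without one in each library. The levels were 1062 against 965.5 CPM in the library labelled E14, 677.3 against 560.1 CPM in that labelled E16, and 1204 against 993.4 CPM in that labelled E18. Nfib followed, at 1163 against 968.0, 698.9 against 624.4 and 1228 against 1071 CPM. The intervals of these pairs did not overlap. Nfix was at 324.7 against 294.4 CPM and at 66.9 against 66.1 CPM, each with overlapping intervals. In the library labelled E18 it was at 269.5 CPM (261.3 to 278.0) against 243.5 CPM (234.0 to 253.3), without overlap. Cells with a UMI were also deeper before thinning, at medians of 16047, 15456 and 14703 UMIs against 11493, 11603 and 10721, and depth's part in the difference was not tested.

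Intermediate progenitors repeated the order of the libraries. Nfix was at 457.9, 51.0 and 310.3 CPM, with intervals of 439.8 to 476.5, 44.7 to 57.9 and 300.5 to 320.4, so the library labelled E16 was 8.98-fold below that labelled E14. Nfic was at 24.8, 7.32 and 22.4 CPM, from 131, 34 and 272 UMIs. Nfia was at 1113, 900.4 and 1372 CPM and Nfib at 1295, 964.5 and 1646 CPM, a gap between the libraries labelled E16 and E14 of log2 -0.31 and -0.42 over the class as a whole. Again 2 of 4 members, Nfic and Nfix, were at least 2-fold lower in E16 than in E14, against 8.86% of genes, and 2 of 4 at least 2-fold higher in E18 than in E16, against 2.61%. From E14 to E18, 0 of 4 were past 2-fold, against 4.14% of genes in either direction.

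All 3 intermediate progenitor clusters held at least 50 cells of each library, in different proportions: cluster 8 held 272 of 449 cells labelled E14 and 75 of 411 labelled E16. In cluster 8, led by Neurog2 and Eomes, Nfix was at 454.4, 27.3 and 280.7 CPM. In cluster 11 it was at 412.8, 50.7 and 295.3 CPM and in cluster 16 at 531.6, 62.8 and 392.5 CPM. Nfib and Nfic too were lowest in the library labelled E16 in each of the 3, Nfic on 4, 22 and 8 UMIs there. Nfia varied by cluster. In cluster 8 it was at 558.5 CPM (504.4 to 616.8) in that library against 1194 CPM (1154 to 1234) in the library labelled E14, and Nfib there at 601.6 against 1228 CPM, wider gaps than over the whole class. In cluster 11 Nfia was at 816.0 CPM (780.9 to 852.3) against 899.2 CPM (850.0 to 950.6), with intervals that just overlapped. In cluster 16 it was at 1206 CPM (1151 to 1264) against 1175 CPM (1108 to 1245), which did not differ beyond counting error.

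**Figure D2:**
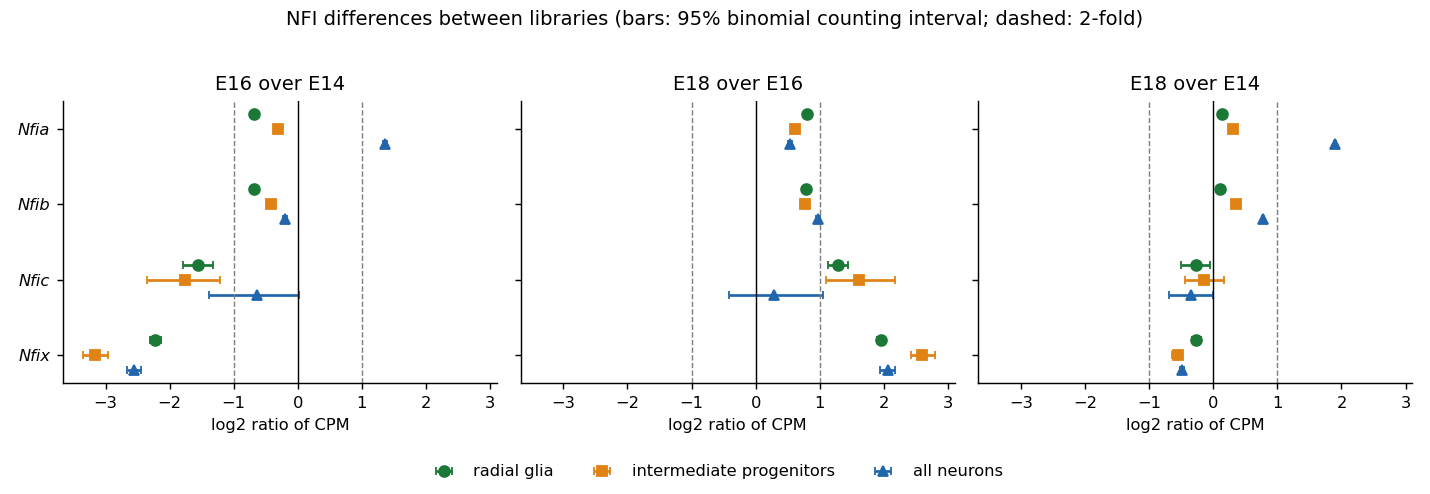
Log2 ratio of CPM between 2 libraries (horizontal axis) for each gene (vertical axis) in radial glia (circles), intermediate progenitors (squares) and all neurons (triangles), with 95% binomial counting intervals and dashed lines at 2-fold. In the left panel Nfia lies at -0.68 in radial glia and at 1.36 in neurons, and Nfix lies below -2 in all 3 classes.

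Neurons here are the cortical excitatory classes, without the Cajal-Retzius and GABAergic cells described further on. They were split into newborn and maturing ones where markers allowed, and the library labelled E16 held 2 newborn and 0 maturing cells, so its 595 neurons enter only as all neurons together. These came almost wholly from cluster 12 (592 cells), led by Calb1 and Adcyap1. The neurons labelled E14 were in clusters 2, 4, 9 and 13, and those labelled E18 in clusters 6, 7 and 14. None of these 8 clusters held 50 cells of more than 1 library, so kind of neuron and library cannot be told apart in what follows. Markers of other classes moved with the libraries: in label order those of radial glia summed to 486.8, 857.1 and 662.1 CPM in all neurons, with 4, 5 and 4 of 10 at 20 CPM or more. Those of intermediate progenitors summed to 623.6, 2138 and 1456 CPM, with 6 of 8 at that level in each, and those of Cajal-Retzius cells to 43.9, 617.9 and 157.3 CPM, with 1, 3 and 2 of 7. The median share of mitochondrial UMIs was 7.18%, 5.83% and 5.75%. The part of these in the neurons' NFI differences was not tested.

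Over all neurons Nfia took a different order from that in progenitors. In label order it was at 547.1, 1407 and 2043 CPM, with intervals of 539.9 to 554.4, 1376 to 1439 and 2025 to 2062. Nfib was at 1699, 1479 and 2910 CPM. Nfix kept the order seen in progenitors, at 701.7, 120.0 and 499.1 CPM. Nfic was near its lowest, at 5.77, 3.69 and 4.52 CPM, from 232, 20 and 103 UMIs.

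For E16 over E14 in all neurons, Nfia was at log2 1.36 (1.33 to 1.40), Nfib at -0.20 (-0.23 to -0.17), Nfic at -0.64 (-1.38 to 0.02) and Nfix at -2.55 (-2.66 to -2.44). Of the 4 members, 3 reached the mean of 5 CPM, Nfic not. Nfia was the 1 member at least 2-fold higher, against 6.70% of genes, and Nfix the 1 at least 2-fold lower, against 6.56%. With a stricter cell filter (2000 genes, 5% mitochondrial UMIs) the Nfia ratio was 0.97, under 2-fold. From E16 to E18 Nfix was the 1 member past 2-fold, 4.16-fold higher, against 3.39% of genes. Nfib stood close to that line at 1.97-fold. From E14 to E18 Nfia was the 1 member at least 2-fold higher, at 3.73-fold, against 2.69% of genes, while Nfix was 1.41-fold lower.

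The Nfia gap between the libraries labelled E18 and E14 was larger in maturing than in newborn neurons. Newborn neurons had 850.1 CPM in E14 and 1964 CPM in E18, a 2.31-fold difference, and Nfia was the 1 member at least 2-fold higher, against 3.46% of genes. That ratio, log2 1.21, was 0.93 with the stricter filter, 0.82 with no doublets removed and 0.93 with NFI and related genes among the variable genes. Maturing neurons had 394.3 CPM in E14 and 1950 CPM in E18, a 4.95-fold difference, again the 1 member past 2-fold, against 3.44% of genes at least 2-fold higher. The maturing neurons labelled E14 were of 2 kinds, with Nfia at 217.0 CPM in cluster 2 and 602.4 CPM in cluster 9. The newborn neurons labelled E14 were also of 2 kinds, with Nfia at 729.3 CPM in cluster 4 and 1117 CPM in cluster 13. Each fold of this paragraph that uses the library labelled E14 therefore depends on the proportions of these clusters. Within the library labelled E14, Nfia was 2.16-fold lower in maturing than in newborn neurons, and 1 of 4 members was at least 2-fold lower, against 5.44% of genes. Within the library labelled E18 the 2 classes did not differ beyond counting error, at log2 -0.01 (-0.04 to 0.02).

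Neurons were also split by whether they had a UMI, after thinning to 2000 UMIs, of Bcl11b, a factor of deep-layer neurons that project below the cortex. Nfia was higher in the cells with a Bcl11b UMI in each library. In the library labelled E14 it was at 706.3 CPM (692.9 to 719.9) in 1124 such neurons and at 452.2 CPM (443.9 to 460.6) in the 2201 others. The corresponding levels were 1464 CPM in 432 cells and 1240 CPM in 158 cells of the library labelled E16, and 2102 CPM in 1798 cells and 1802 CPM in 483 cells of that labelled E18. Both sets of neurons thus kept the order E14, E16, E18 from low to high for Nfia, with no overlap of intervals. Nfib was also higher in cells with a Bcl11b UMI, at 1969 against 1538, 1563 against 1231 and 2976 against 2636 CPM in label order. Nfix was at 757.5 against 668.7 CPM, 123.6 against 108.7 CPM with overlapping intervals, and 510.4 against 453.9 CPM. Cells with a Bcl11b UMI were deeper before thinning, at medians of 13273, 8879 and 9076 UMIs against 10294, 8176 and 8231, and depth's part was not tested. Of the neuron clusters of the library labelled E14, cluster 2, of maturing neurons, had the lowest Nfia, 217.0 CPM, and cluster 13, of newborn neurons, the highest, 1117 CPM.

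**Figure D3:**
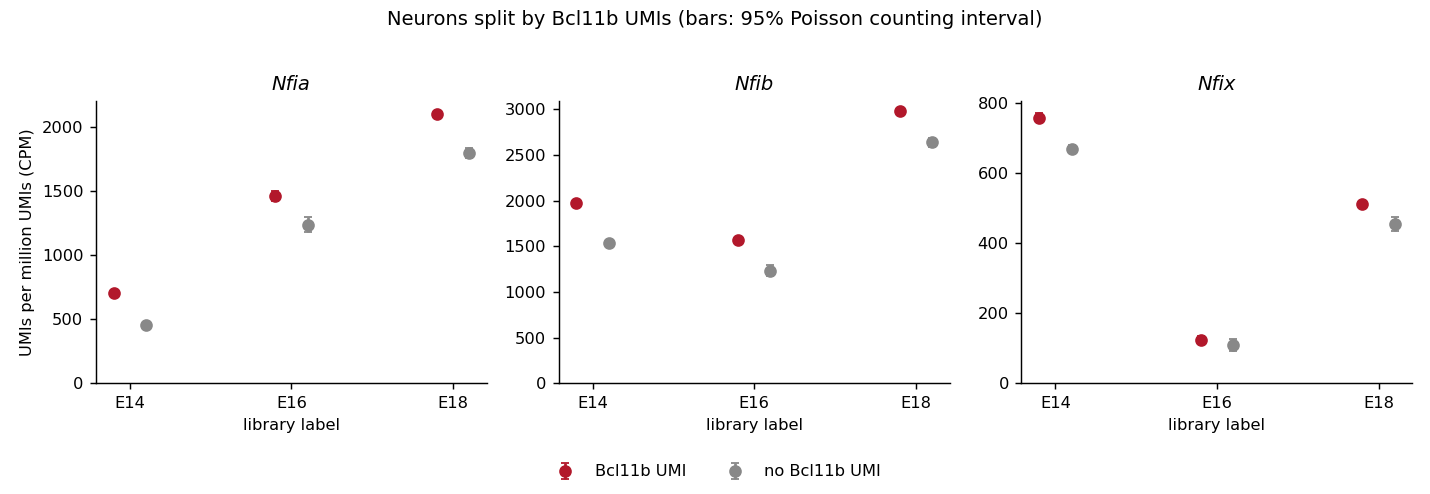
Level of Nfia, Nfib and Nfix (vertical axis, CPM from 0, each on its own scale) in neurons of the 3 libraries (horizontal axis) with a UMI of Bcl11b (red) or without one (grey) in cells thinned to 2000 UMIs, with 95% Poisson counting intervals. In the library labelled E14 Nfia is at 706.3 CPM in cells with a Bcl11b UMI and 452.2 CPM in the others, and both sets are higher in the libraries labelled E16 and E18.

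Within each library, neurons and radial glia differed in opposite ways for different members. Nfic was lower in all neurons than in radial glia in each library, by 6.33-fold, 3.35-fold and 6.68-fold in label order. Nfib was higher, by 1.57-fold, 2.19-fold and 2.50-fold, and Nfix was higher by 2.25-fold, 1.80-fold and 1.93-fold. Nfia was 1.87-fold lower in neurons of the library labelled E14 but 2.20-fold and 1.83-fold higher in those labelled E16 and E18. The members past 2-fold in either direction were 2 of 4 in E14 against 35.1% of genes, 3 of 4 in E16 against 32.4%, and 2 of 4 in E18 against 32.7%. Such a share of all genes is large, and 2 of 4 is not far from it. Nfic counts in each library, but in E16 and E18 it reached the mean of 5 CPM only through radial glia. Its levels in all neurons there were 3.69 and 4.52 CPM. Newborn neurons alone gave 2 of 4 in E14 (Nfic and Nfix, against 32.3% of genes) and 2 of 4 in E18 (Nfib and Nfic, against 29.9%). With the stricter filter 1 of 4 was past 2-fold in E14 for both all neurons and newborn neurons, and 2 of 4 in all neurons labelled E16, where Nfic was at log2 -0.94.

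The make-up of the family's UMIs also differed between libraries. Nfix held 12.7% of NFI UMIs in radial glia of the library labelled E14, 4.78% in that labelled E16 and 10.1% in that labelled E18. In intermediate progenitors its share was 15.8%, 2.65% and 9.26%, and in all neurons 23.8%, 3.99% and 9.15%. Nfia and Nfib had their highest shares of radial glia's NFI UMIs in the library labelled E16, 45.9% and 48.4%, where their levels were lowest. Nfia's share of the neurons' NFI UMIs was 18.5% (18.3% to 18.7%) in E14, 46.8% (46.0% to 47.5%) in E16 and 37.4% (37.2% to 37.7%) in E18. Summed over the family, neurons had 2954, 3010 and 5456 CPM, so the libraries labelled E14 and E16 had close totals with a different mix. A share here follows how well each gene's 3′ end is captured as well as its RNA, so shares are read across groups only.

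**Figure D4:**
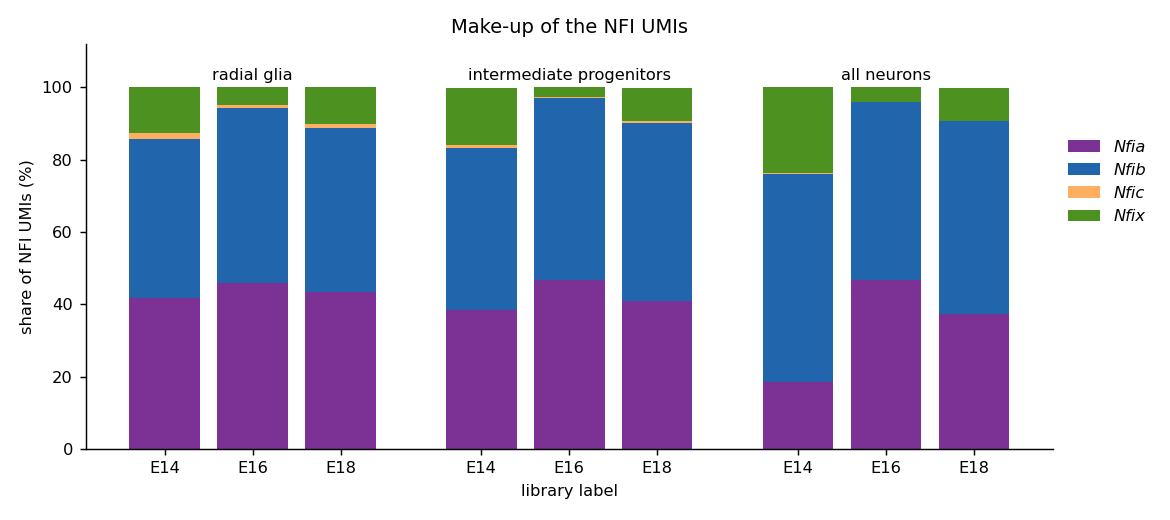
Share of all NFI UMIs (vertical axis, percent) taken by each gene in radial glia, intermediate progenitors and all neurons of the 3 libraries (horizontal axis). The Nfix part is smallest in the library labelled E16 in each class, at 4.78%, 2.65% and 3.99%, and the Nfia part is smallest in neurons labelled E14, at 18.5%.

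The share of cells with a UMI was compared after thinning each cell to 2000 UMIs, which left out 4, 20 and 16 shallower radial glia in label order. Nfia was then found in 80.2%, 62.3% and 84.9% of radial glia and Nfib in 79.4%, 63.2% and 84.6%. Nfix was found in 40.2%, 11.2% and 35.9%, and Nfic in 5.85%, 2.01% and 5.99%. Each member's interval in E16 lay below those of both other libraries. Without thinning the shares for Nfix were 89.9%, 46.0% and 84.3%. For comparison, the 124 erythroid cells labelled E16, red blood cell precursors low in these genes, had a UMI of Nfia, Nfib or Nfix in 0.806%, 0.806% and 2.42% at 2000 UMIs, and of Nfic in 0 of 124 cells, where 3 cells would be 2.42%. Their summed UMIs held 0 of Nfic in 4095488, against 12.4 CPM in radial glia of that library. Their mix was not that of the library: they had 41 UMIs of Nfix to 50 of Nfia, against 4318 to 47806 over all kept cells labelled E16. The part of free RNA in these values was not tested. Median depths before thinning were 32391 UMIs in the erythroid cells and 13624 in those radial glia. The other libraries held 1 and 9 erythroid cells, too few for this comparison.

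Nfia, Nfib and Nfix were found in the same cells more often than their separate shares give in radial glia, intermediate progenitors and neurons labelled E16. In neurons labelled E14 they were so by less. A gene found in nearly all cells, as Nfib was in 98.6% of neurons labelled E18, holds this ratio close to 1, so the gaps between libraries in what follows are partly set by the shares themselves. In radial glia thinned to 2000 UMIs, Nfia and Nfib were both found in 250, 1227 and 1288 cells, where the product of their shares gives 250.1, 1137 and 1272 cells. In neurons labelled E16 the pair was found in 400 cells against 351.6 from the product, 1.14 times as many; these neurons include 55 with no UMI of either gene before thinning. The corresponding ratio in neurons was 1.04 in E14 and 1.00 in E18. With Nfix the ratio in radial glia was 0.971, 1.17 and 1.01 for Nfia and 1.00, 1.19 and 1.01 for Nfib in label order. In neurons it was 1.07, 1.18 and 1.00 for Nfia and 1.02, 1.2 and 1.00 for Nfib. In intermediate progenitors the ratio was 1.00, 1.08 and 1.00 for Nfia with Nfib. There it was 1.01, 1.12 and 1.01 for Nfia with Nfix and 1.00, 1.15 and 1.03 for Nfib with Nfix. The pairs with Nfix labelled E16 rest on 24 and 27 cells there. Pairs with Nfic rest on at most 92 cells. At least 1 NFI UMI was present in 97.7%, 84.3% and 97.8% of thinned radial glia and in 97.4%, 87.1% and 99.8% of thinned neurons.

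Across the 23 groups of at least 50 cells formed by class and library, Nfia was highest in the neurons labelled E18 that could not be split (2177 CPM), followed by newborn (1964) and maturing (1950) neurons of that library, a pair with overlapping intervals. Nfib had the same 3 groups on top, at 3036, 2870 and 2787 CPM, each apart from the next. Nfix was highest in newborn neurons labelled E14 (829.5 CPM) and next in maturing neurons of that library (637.4). Nfic was highest in radial glia labelled E14, at 36.5 CPM, with neighbours in the order overlapping all the way down. All 4 members were lowest in erythroid cells or in the GABAergic lineage labelled E16.

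Cells of the GABAergic lineage, inhibitory neurons that enter the cortex from below, were few: 55, 74 and 72 cells in label order. Nfib in them was at 1000, 32.3 and 429.1 CPM, with intervals of 895.8 to 1114, 19.4 to 50.4 and 368.8 to 496.3. Nfia was at 294.4, 22.1 and 199.1 CPM from 98, 13 and 84 UMIs. Nfix gave 35, 1 and 21 UMIs and Nfic 3, 0 and 1. In the library labelled E16 the Nfia interval, 11.8 to 37.7 CPM, overlapped that of the erythroid cells, 9.06 to 16.1 CPM, while the Nfib interval lay just above that of the erythroid cells, 11.4 to 19.1 CPM.

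Cells with markers of the cortical hem and choroid plexus, the tissue that makes cerebrospinal fluid, numbered 151 in E16 and 53 in E18 and had a mix of their own. There Nfia was at 736.8 and 490.5 CPM and Nfib at 269.3 and 253.8 CPM. Nfia held 70.0% and 61.2% of NFI UMIs, against 45.9% and 43.5% in radial glia of the same libraries. The unnamed cluster led by Fgf17 and Fgf8 was similar in E16, where Nfia held 62.5% of NFI UMIs, with 622.3 CPM of Nfia and 344.7 CPM of Nfib. Cajal-Retzius cells, the reelin-making neurons at the surface, had 1081 CPM of Nfia and 1143 CPM of Nfib in E16, and 1588 and 2353 CPM in E18.

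**Figure D5:**
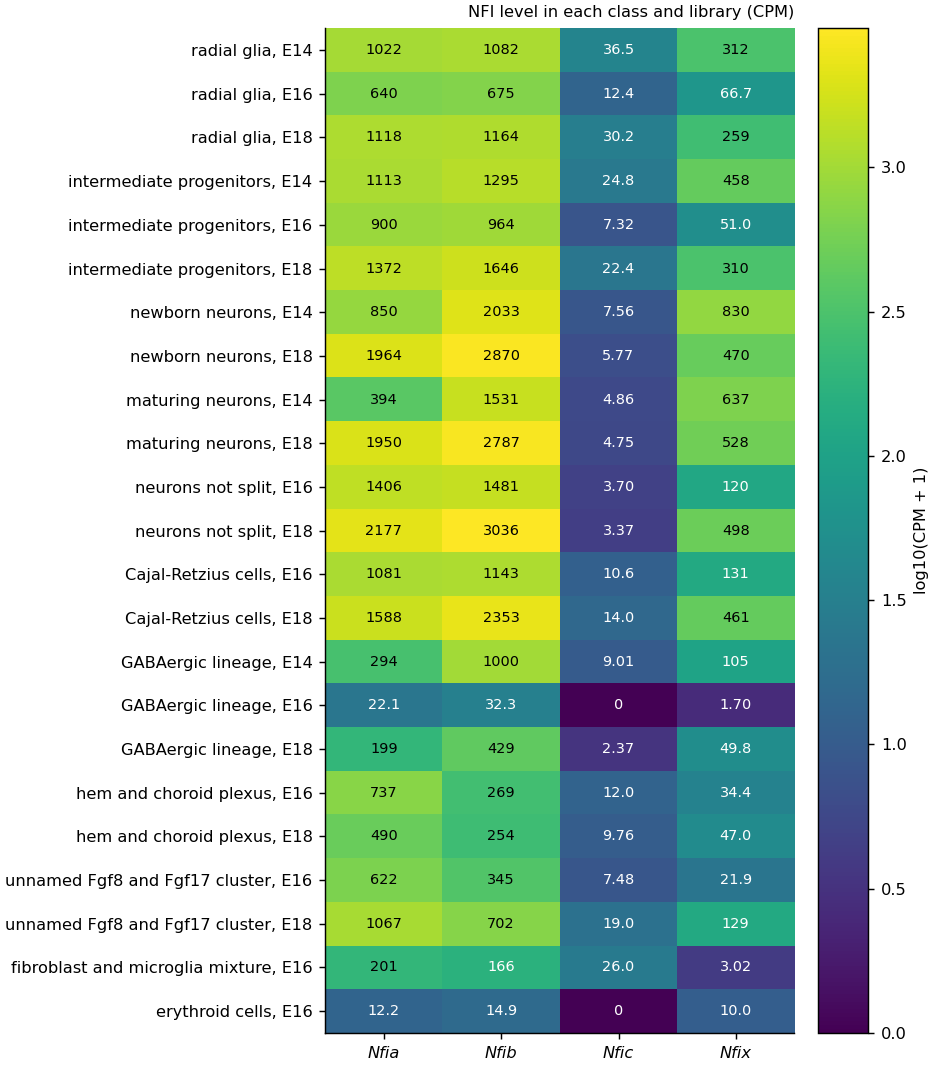
Level of each NFI gene (columns) in each class and library with at least 50 cells (rows), printed in CPM and coloured by log10(CPM + 1). Nfib reaches 3036 CPM in unsplit neurons labelled E18, and all 4 genes are at 32.3 CPM or less in GABAergic and erythroid cells labelled E16.

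By Pearson correlation of log2(CPM + 1) over these 23 groups, which share libraries, the 6152 genes of at least 20 CPM on average were ranked by likeness to each member. Nfia was most like LOC120103113 (0.94), then Nfib (0.91), LOC100910558 (0.90), Rasl11b (0.88) and Rc3h1 (0.87). Among the genes nearest to Nfib were LOC100910558 (0.95), Rapgef1 (0.93), Nfia and Zbtb18 (each 0.91). In the RefSeq table of build GRCr8, LOC100910558 is a long noncoding RNA that lies the third gene on from Nfib on chromosome 5. It was at 187.2, 147.8 and 236.1 CPM in radial glia. Whether strand was used in counting is not given in the sources used here, so reads of neighbouring genes that overlap cannot be told apart. Nfix was most like Foxo6 (0.93), Nfib and Mdga1 (each 0.89), LOC100910558 (0.88) and Zbtb18 (0.86). Nfic stood apart from its family: its nearest genes were Haus7 (0.92), Nek6 (0.91), Septin10 (0.90), Tor1aip2 (0.88) and Timeless (0.86), while its correlation was 0.63 with Nfia, 0.49 with Nfib and 0.37 with Nfix.

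Regulators and partners of the NFI genes were described in radial glia from a list of 6. In E16 over E14, 5 of 6 were lower, 3 of them at least 2-fold, and 1 was at least 2-fold higher, where 8.28% of all genes were at least 2-fold lower and 2.86% higher. Zbtb20, a repressor with a role in timing of neuron production, was at 412.4, 48.9 and 227.8 CPM in label order, and Pou3f2, a POU factor of upper-layer neurons and their progenitors, at 272.1, 50.4 and 133.6 CPM. Both had the low point in E16 that Nfix had. Sox9, which is known to act ahead of Nfia, was at 427.2, 332.2 and 496.9 CPM, the order of Nfia, with narrower gaps to the library labelled E16. Pax6, a radial glia factor, was at 310.0, 185.1 and 265.4 CPM, and Hes5, a Notch target, at 167.3, 80.6 and 118.4 CPM. Emx2 was the exception, at 93.4, 189.9 and 141.6 CPM.

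Of 13 genes reported as raised by NFI factors, 9 reached a mean of 5 CPM in radial glia for E16 over E14. Among the 9, Zcchc24, Aldh1l1, and Cntn2 reached it only through the library labelled E14, so no count over the list is given. The other 6 of the 9 follow in label order. Fabp7, a fatty acid binding protein of radial glia, was at 2300, 503.4 and 676.0 CPM, and Slc1a3, a glutamate transporter, at 346.2, 61.1 and 129.8 CPM. Mmd2, known as an Nfia target in the spinal cord, was at 43.1, 5.33 and 27.4 CPM. Cdh2 was at 386.3, 259.1 and 286.7 CPM and Ephb1 at 44.1, 30.2 and 57.9 CPM. Apcdd1, another known Nfia target, went the other way, at 21.8, 46.5 and 45.5 CPM. Of 4 genes reported as lowered by NFI factors, 0 were past 2-fold in radial glia in any of the 3 comparisons, where 11.1% (E16 over E14), 3.18% (E18 over E16) and 5.03% (E18 over E14) of all genes were, so 0 of 4 is near the background. Ezh2 was at 357.3, 492.7 and 474.1 CPM, Hes1 at 115.2, 109.0 and 143.6 CPM and Bbx at 73.9, 76.9 and 94.1 CPM, and Sox9 is given above.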

How the data were processed

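Single cells of 3 libraries, 1 per label, were analysed from deposited raw UMI counts for each gene and barcode. Per the file headers the matrices came from Cell Ranger 6.0.1, with build mRatBN7.2 per the submitters' processing notes. The total counts were 62740631, 80974234 and 73727823 UMIs in label order. The annotation and the use of strand are not given in the sources used here. The members and gene lists were chosen with earlier results of these data known.

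Barcodes with at least 1000 genes and at most 10% mitochondrial UMIs were kept: 4444 of 7100, 5193 of 6707 and 5690 of 6937. Doublets were scored with Scrublet, and the top 0.8% per 1000 cells removed (158, 216 and 259 cells). Libraries were clustered together in Scanpy 1.11.5 on 2000 variable genes without the NFI and related genes (30 components, 15 neighbours, leidenalg 0.10.2 at resolution 1, no integration). Of 24 clusters, 1 stayed unnamed. A cluster took the class whose markers were highest over the mean of clusters, with at least 3 raised at least 1.2-fold in at least 20% of cells, unless its 10 leading genes held more markers of another class. This scoring was settled after clusters had been seen, and clusters torn only between neuron classes counted as neurons not split. Names of classes are therefore rebuilt.

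For each class of a library, a gene's UMIs were added up and set over all UMIs of the class. Levels carry exact Poisson intervals, shares exact Clopper-Pearson intervals and ratios the interval of the matching binomial share, all at 95% and without a pseudocount. The ratio and its interval were tested on simulated data. Groups had at least 50 cells. All 4 members are named. From related lists, genes of at least 20 CPM in a group were given, at most 6 a list in list order, and the 5 most correlated genes per member. Some genes are not reported here, and the split of neurons by layer factors accordingly used Bcl11b alone. A call was a difference of at least 2-fold, and its background all genes with a mean of at least 5 CPM. Alternatives were the cell filter, resolution, separate clustering, doublet removal, pseudocount, scaling, variable genes and thinning. Further tools were matplotlib 3.10.9, igraph 0.11.9, numpy 2.4.6, pandas 2.3.3, scipy 1.17.1 and scikit-learn 1.9.0 under Python 3.11.15.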

Additional observations from a re-analysis of the deposited data

Results flagged for a closer look

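Nfia differed in direction between classes for the library labelled E16 over that labelled E14. The log2 ratio of CPM was -0.68 in radial glia and 1.36 in all neurons, each with an interval clear of 0. The difference between the classes was not tested, since each label has 1 library. No cluster of these excitatory neurons held 50 cells of both libraries. In the GABAergic lineage, which is not among them, the ratio was -3.74, from 13 and 98 UMIs.

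Barcodes that the cell filters left out also carried NFI UMIs. Their summed NFI level was 2230 CPM over 2656 barcodes labelled E14, 647.2 CPM over 1514 labelled E16 and 2139 CPM over 1247 labelled E18. In these barcodes too, Nfix was lowest in the library labelled E16, at 363.1, 27.2 and 137.9 CPM in label order. The part of free RNA in them was not tested.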

How the results depend on the processing

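Counts of members past 2-fold were computed under 12 alternatives, and those for radial glia and intermediate progenitors stayed the same under each. Over all counts, 184 of 193 values stayed within 1.5 times. Of the single members' log2 ratios, 522 stayed within their counting error and 238 moved beyond it, and 0 ratios past 2-fold changed sign. The stricter filter gave 1 member in place of 2 for all neurons E16 over E14, for all neurons over radial glia in E14 and for newborn neurons over radial glia in E14. It gave 2 in place of 1 for all neurons E18 over E16 (Nfib at log2 1.03) and for maturing neurons E18 over E14 (Nfic at 1.03), and 0 in place of 1 for newborn neurons E18 over E14. That last count was also 0 with no doublets removed and with related genes among the variable genes. The mean of per-cell CPM gave 2 for all neurons E18 over E16. Nfic in all neurons over radial glia in E16 was at -0.94 with the stricter filter and just under 2-fold with a pseudocount of 5 CPM, each leaving 2 members in place of 3 there. The cause was not tested. Nfia in newborn neurons over radial glia in E14, at -0.27, ran up to 0.18. All 4 members had a lower share of radial glia with a UMI in E16 than in E14 at thinning to 1000, 2000 and 5000 UMIs and without it. The counts over all neurons were added after the classes had been seen, because newborn neurons labelled E16 gave no value except with the stricter filter (1, 2 and 2 members past 2-fold for E16 over E14, E18 over E16 and over radial glia) and with each library clustered alone (1, 1 and 3). With the looser filter newborn neurons labelled E14 gave none. No paired analysis was possible because each label has 1 library. Nfic rests on few UMIs, 20 in neurons labelled E16.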

Other observations

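A small set of neurons labelled E16 had no UMI of Nfia or Nfib. It numbered 55 of 595 cells, or 9.24% (7.04% to 11.9%), against 7 of 3337 (0.210%) in the library labelled E14 and 1 of 2294 (0.0436%) in that labelled E18. Depth was close, at a median of 7291 UMIs against 8768 in the other neurons of that library. These cells were chosen by their NFI counts, so the absence of Nfia and Nfib is no result, but Nfix was absent too, with 0 UMIs against 650 (129.9 CPM) in the other cells. Their pan-neuronal genes were not low: Tubb3 was at 4195 against 2716 CPM and Stmn2 at 4705 against 3197 CPM. Tbr1, a factor of early excitatory neurons, was at 548.0 against 527.3 CPM. Neurod2, Neurod6 and Zbtb18, factors of cortical excitatory neurons, were at 36.2 against 406.4, 41.0 against 590.5 and 16.9 against 443.0 CPM. The genes highest in them relative to the others were Tcf7l2 (255.9 against 3.00 CPM), Cck (200.4 against 0.80), Crabp1 (265.5 against 8.40), Pbx3 (178.6 against 4.40) and Shox2 (147.3 against 2.60). The genes named here were chosen after their values were seen, and which cells these are was not tested.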
